A study of Homo sapiens with 9 samples.

Results

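The BCL2 family was followed in NT2 cells through 10 genes: the survival members BCL2, BCL2L1, BCL2L2 and MCL1, the effectors BAX and BAK1, and the BH3-only members BCL2L11, BBC3, BID and BAD. All non-control probes of the array whose gene name is one of these symbols were taken, which gave 15 probes of 42405. NT2 (hNT2, NTERA-2) is a human embryonal carcinoma line that turns towards a neural fate under retinoic acid. All cultures received 10 µM retinoic acid for 4 days, and total RNA was taken at 96 h from cells that were not exposed (control), from cells given 1 µM paraoxon and from cells given 5 µM mipafox. Both are organophosphorus compounds that inactivate esterases, and mipafox, unlike paraoxon, inhibits neuropathy target esterase, the enzyme linked to delayed neuropathy. Each treatment had 3 arrays, called A, B and C. The design text deposited with the data calls these biological replicates and the study's methods call them technical replicates, so the p-values measure the spread between these arrays, which may be technical. The doses of both compounds differed, so paraoxon and mipafox were each set against control and their values are given side by side.

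Proteins of the BCL2 family decide at the mitochondrial outer membrane whether a cell enters the intrinsic pathway of apoptosis. BAX and BAK1 open the membrane and let cytochrome c out, the survival members hold them back, and the BH3-only proteins sense damage or lost growth signals and tip the balance towards opening. Many family members are also switched by splicing, phosphorylation, cleavage or protein turnover, none of which a probe signal reports. Pluripotent and embryonal carcinoma cells are known for being quick to enter this pathway.

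The 3 genes BCL2, BCL2L11 and BAX carry probes that the array's annotation names for different transcript variants or different positions, so their values are given probe by probe. The last 30 bases of each 60-base probe are shown 5′ to 3′, as the deposited files give them, to show that the probes of a gene read different stretches of its transcripts. Capitals mark AATAAA, the usual polyadenylation hexamer, searched on the probe strand.
BCL2 A_23_P352266, variant alpha: aaaaatacggtaaggatactttacatggtt
BCL2 A_33_P3355185, variant beta: tgtgtgtggagagcgtcaaccgggagatgt
BCL2L11 A_24_P122921, variant 1: gggtaattgccactttacttgtgcaatact
BCL2L11 A_33_P3251932, variant 9: tatggtcattggtgattaAATAAAatgtat
BCL2L11 A_33_P3398526, variant 9: tgactctgactctcggactgagaaacgcaa
BAX A_23_P208706, variant sigma: tatggcatttttctgggaggggtggggatt
BAX A_33_P3341144, variant beta: gaccctctgaccctagctctttcctttttt
The hexamer stood in the last 30 bases of 1 of the 15 BCL2 family probes (6.67%) and of 5.42% of all 42405 probes. In hg19 the probe of BCL2 variant alpha lies at chr18:60790723-60790782 and that of variant beta at chr18:60985401-60985460, both on the minus strand and 194.6 kb apart. The BCL2L11 probes lie on the plus strand at chr2:111878705-111878764 (A_33_P3398526), chr2:111886352-111886411 (A_33_P3251932) and chr2:111925892-111925951 (A_24_P122921). The BAX probes lie on the plus strand at chr19:49464454-49464513 (variant beta) and chr19:49464904-49464963 (variant sigma), 390 bases apart. Some probes are annotated to more than 1 transcript of their gene, and the exon or untranslated region that each lies in was not analysed here. Variant names here and below are the annotation's labels for probes. Whether a probe reads the named variant alone was not analysed.

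No BCL2 family gene passed the threshold with either compound. All 15 probes were well above background on all 9 arrays and none was saturated, so each gene had a signal above background on every array. The same flag was also met on all 9 arrays by 4 of 6 markers of blood, muscle and liver, so it does not by itself show that a transcript is present. A probe was called when limma's Benjamini-Hochberg adjusted p over the 29134 probes tested was under 0.05 and its log2 fold change lay beyond 1 in either direction. With paraoxon 0 of the 15 probes were called against 0.00% of all probes tested, and 1 of 15 (6.67%) had an unadjusted p under 0.05 against 13.3% of all probes. With mipafox 0 of 15 were called against 0.00%, and 0 of 15 had an unadjusted p under 0.05 against 6.96% of all probes. The smallest adjusted p from limma among the 15 probes was 0.297 with paraoxon and 0.819 with mipafox, where the smallest over all probes was 0.0608 and 0.156. The median log2 fold change of the 15 probes was 0.00 with paraoxon and -0.02 with mipafox, beside 0.01 and 0.00 over all probes tested.

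The arrays set a limit on how large a missed change could have been. With paraoxon the log2 fold changes ran from -0.53 to 0.29, and the 95% intervals of all 15 probes lay within -0.99 and 0.88. With mipafox they ran from -0.35 to 0.36, and all 15 intervals lay within -0.95 and 0.82. A log2 fold change of 1 in either direction was therefore outside the interval of each probe in this model, which has no term for the slide. With the slide as a block this held for 7 of 15 probes with paraoxon and for 10 of 15 with mipafox. Without control C it held for 13 of 15 and 14 of 15, and with array weights for 14 of 15 and 15 of 15. It held for all 15 in both comparisons with quantile normalization, with normexp correction and with the authors' processed values.

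The 9 arrays sat on 2 slides, which were also scanned apart. The 3 controls were on slide 1 together with mipafox A, and the 3 paraoxon arrays were on slide 2 with mipafox B and C. Paraoxon and control therefore shared no slide, and the slide term rests on the difference between mipafox A and the other mipafox arrays. A mipafox value with the slide as a block is therefore the value of mipafox A, 1 array, against the 3 controls. From 65.7% to 73.6% of probes were well above background per array, and the 75th percentile of the processed signal ran from 802 to 1590. Of the embryonal carcinoma markers 10 of 10 (POU5F1 and SOX2 among them) were well above background on all 9 arrays, as were 8 of 9 retinoic acid response genes and 6 of 8 neural genes. Of 5 glial markers 3 were, and GFAP, the defining astrocyte marker, was on none. Of 6 markers of blood, muscle and liver 4 were well above background on all 9 arrays (PTPRC, CD3E, DES and MYH7), ALB on 1 array and HBB on none. The PTPRC probe read 1.15 higher on the log2 scale with paraoxon (limma adjusted p = 0.0764), and the retinoic acid target HOXB1 gave -0.84 with paraoxon and -0.66 with mipafox (limma adjusted p = 0.206 and 0.669). Their part in the results below was not tested. Values below are normalized log2 signals, that is log2 of the processed signal minus the 75th percentile of its array, and they cannot be compared between probes. Fewer cells of a type and less RNA per cell cannot be told apart in such bulk RNA.

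BCL2, the founding survival protein, was measured by 2 probes, neither of them called with either compound. The probe annotated to variant alpha read -4.01, -3.79 and -3.88 on control arrays A, B and C, -3.87, -3.62 and -3.94 with paraoxon, and -3.79, -3.94 and -4.14 with mipafox. The treatments overlapped throughout, and the log2 fold change was 0.08 with paraoxon (95% interval -0.26 to 0.43) and -0.06 with mipafox (-0.41 to 0.28). This probe is printed 10 times on each array, and its spots within 1 array had an SD of 0.08 to 0.15.

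The BCL2 probe annotated to variant beta, which may also read other BCL2 transcripts, read -4.38, -4.87 and -5.10 in controls, -5.17, -5.51 and -5.26 with paraoxon, and -5.24, -4.94 and -5.20 with mipafox. All 3 paraoxon arrays lay below all 3 controls, although control C and paraoxon A were only a few hundredths apart, and mipafox overlapped control. The log2 fold change with paraoxon was -0.53 with an SE of 0.20, a fold of 0.692 (limma adjusted p = 0.297). This was the only one of the 15 probes whose unadjusted p was under 0.05 in the fit. With mipafox it was -0.35 (limma adjusted p = 0.821). Both values changed with the processing and with single control arrays. With the authors' processed values and with normexp correction the paraoxon value was -0.11 each time, and without control A it was -0.33. It was -0.70 with the slide as a block, -0.69 without control C and -0.59 with quantile normalization, and below 0 under all 20 alternatives. The mipafox value was 0.03 with normexp correction, -0.08 with the authors' values, -0.09 with array weights and -0.14 without control A. It was -0.46 with the slide as a block and -0.50 without control C, and below 0 under 19 of 20 alternatives.

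BCL2L1 encodes BCL-XL, a survival protein of neurons and stem cells. Its probe at chr20:30253324-30253383 (minus strand) read -1.37, -1.53 and -1.48 in controls, -1.61, -1.68 and -2.42 with paraoxon, and -1.80, -1.64 and -1.60 with mipafox. It was the single probe of the family whose 3 control arrays lay above every exposed array. The log2 fold change was -0.44 with paraoxon (SE 0.21, limma adjusted p = 0.413) and -0.22 with mipafox (SE 0.21, limma adjusted p = 0.918), neither past the threshold.

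One array decided the paraoxon value of BCL2L1. Without paraoxon C it was -0.18. The probe is printed 10 times per array, and the 9 spots used on paraoxon C ran from -2.57 to -2.29, where the lowest spot on any other array was -1.95 on mipafox A. The spots of 1 array had an SD of 0.04 to 0.09, so the low value of paraoxon C was shared by its spots. The other probes printed 10 times, for BCL2 and BAX, had paraoxon C at -3.94 and 2.39, within the range of the other arrays.

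BCL2L2 encodes BCL-W, a survival protein with a role in germ cells and neurons. Its probe at chr14:23780660-23780719 (plus strand) was among the steadiest of the family. It read 0.11, 0.24 and 0.27 in controls, 0.23, 0.30 and 0.10 with paraoxon, and 0.18, 0.20 and 0.41 with mipafox, a range of 0.31 over the 9 arrays. Its residual SD of 0.107 stood at percentile 5.2 of all probes tested, and its log2 fold changes were 0.00 (-0.30 to 0.30) and 0.05 (-0.25 to 0.36).

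MCL1, a short-lived survival protein on which many dividing cells depend, varied more. Its probe at chr1:150547622-150547681 (minus strand) read 1.21, 1.24 and 1.32 in controls, 1.55, 1.78 and 1.12 with paraoxon, and 1.04, 1.50 and 1.81 with mipafox. The controls lay close together (SD 0.06), and both exposed treatments spread to either side of them (SD 0.33 and 0.39). The log2 fold change was 0.23 with paraoxon (-0.28 to 0.74) and 0.19 with mipafox (-0.32 to 0.70). The mipafox value was 0.01 without mipafox C and 0.40 without mipafox A, and the paraoxon value was 0.08 without paraoxon B and 0.41 without paraoxon C. With the slide as a block, which rests on mipafox A (1.04), the values were -0.39 and -0.22.

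BAX is the effector that moves from the cytosol to mitochondria when a cell is damaged. The brighter of its probes, annotated to variant sigma though it may also read other BAX transcripts, read 2.41, 2.15 and 2.20 in controls, 2.27, 2.51 and 2.39 with paraoxon, and 2.62, 2.38 and 2.23 with mipafox. The treatments overlapped, and the log2 fold changes were 0.14 (-0.21 to 0.48) and 0.16 (-0.19 to 0.50). Mipafox A was the highest of the 9 arrays, and spots of this probe within an array had an SD of only 0.03 to 0.07, well under the spread between arrays. The probe annotated to variant beta read -3.05, -3.63 and -3.63 in controls, -3.46, -3.66 and -3.11 with paraoxon, and -3.22, -3.12 and -3.74 with mipafox, with log2 fold changes of 0.03 and 0.08. None of these values passed the threshold, and that of variant beta with paraoxon was -0.12 without paraoxon C and that with mipafox -0.04 without mipafox B.

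BAK1, the effector that sits in the outer membrane, was measured at chr6:33540585-33540644 (minus strand). It read 0.48, 0.19 and 0.23 in controls, 0.13, -0.02 and 0.45 with paraoxon, and 0.42, 0.31 and 0.11 with mipafox. All treatments overlapped, with log2 fold changes of -0.11 (-0.49 to 0.26) and -0.02 (-0.40 to 0.36).

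BCL2L11 encodes BIM, the BH3-only protein that rises when growth factors or kinase signals are withdrawn. Its brightest probe, annotated to variant 1, read 0.83, 1.03 and 1.03 in controls, 1.13, 1.30 and 1.07 with paraoxon, and 1.11, 0.98 and 0.98 with mipafox. All 3 paraoxon arrays lay above all 3 controls, by a log2 fold change of 0.20 (SE 0.13, limma adjusted p = 0.577), and the mipafox value was 0.06 (limma adjusted p = 0.973). The residual SD of 0.106 was at percentile 5.0 of all probes, so this small difference was measured with one of the narrower intervals of the family (-0.10 to 0.50).

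The other BCL2L11 probes, both annotated to variant 9, were less steady. A_33_P3251932, which holds the hexamer, read -2.16, -2.56 and -2.84 in controls, -2.26, -2.38 and -2.05 with paraoxon, and -2.07, -1.98 and -2.43 with mipafox. Controls B and C were its lowest arrays, and the log2 fold change was 0.29 with paraoxon (-0.17 to 0.75) and 0.36 with mipafox (-0.10 to 0.82), the highest of the 15 probes with each compound, and 0.13 and 0.20 without control C. A_33_P3398526, which has a single spot per array, read -2.05, -2.42 and -2.55 in controls, -1.43, -2.78 and -2.32 with paraoxon, and -2.47, -2.38 and -2.87 with mipafox. Its paraoxon arrays held both the highest value of all 9 and one of the lowest, and its residual SD of 0.452 was at percentile 85.8. Its log2 fold change was 0.16 with paraoxon, -0.21 without paraoxon A and 0.71 with array weights. With mipafox it was -0.23, where the other BCL2L11 probes were above 0, and 0.01 with array weights.

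BBC3 encodes PUMA, a BH3-only protein induced by p53. Its probe at chr19:47724174-47724233 (minus strand) read 2.31, 2.27 and 2.36 in controls, 2.24, 2.11 and 2.13 with paraoxon, and 2.39, 2.0 and 1.92 with mipafox. The paraoxon arrays lay just below the controls, and mipafox A, on the slide of the controls, lay above them while mipafox B and C lay below. The log2 fold change was -0.15 with paraoxon (-0.49 to 0.19) and -0.21 with mipafox (-0.55 to 0.13). With the slide as a block both turned positive, at 0.28 and 0.08.

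BID links death receptors to mitochondria once caspase-8 cleaves it, a step that leaves its mRNA untouched. Its 2 probes lie 23 bases apart, at chr22:18218182-18218241 (A_24_P187948) and chr22:18218265-18218324 (A_33_P3227041) on the minus strand, and share transcripts, so they are not independent measurements. A_24_P187948 read 2.43, 2.63 and 2.54 in controls, 2.45, 2.38 and 2.41 with paraoxon, and 2.89, 2.46 and 2.11 with mipafox. A_33_P3227041 read 2.60, 2.86 and 2.71 in controls, 2.67, 2.41 and 2.43 with paraoxon, and 2.90, 2.67 and 2.31 with mipafox. Both probes put mipafox A highest and mipafox C lowest of all 9 arrays. Their log2 fold changes were -0.12 and -0.22 with paraoxon and -0.04 and -0.10 with mipafox, and with the slide as a block all 4 were positive.

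BAD, which survival kinases keep inactive by phosphorylation, was measured at chr11:64037483-64037542 (minus strand). It read -1.10, -1.31 and -1.39 in controls, -1.30, -1.61 and -1.33 with paraoxon, and -1.29, -1.15 and -1.29 with mipafox. All treatments overlapped, and the log2 fold changes were -0.15 (-0.47 to 0.18) and 0.02 (-0.31 to 0.35).

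Across the family, groups that did not overlap were about as frequent as over the whole array. With paraoxon 4 of 15 probes had all paraoxon arrays on one side of all controls (26.7%, against 23.4% of all probes), of which BCL2L11 A_24_P122921 was higher and BCL2 A_33_P3355185, BCL2L1 and BBC3 were lower. With mipafox 1 of 15 did (6.67%, against 11.8%), BCL2L1, which was lower.

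Several members were low on the same arrays, which were also the most often lowest of their treatment over all probes tested. Paraoxon B was the lowest paraoxon array for 9 of the 15 probes (60%, against 41.6% of all probes tested) and mipafox C the lowest mipafox array for 9 of 15 (60%, against 52.7%), with median deviations of the 15 probes from the control mean of -0.20 and -0.19. The other 7 arrays had medians from -0.07 to 0.11. MCL1 ran the other way, with its highest value of each treatment on control C, paraoxon B and mipafox C. Over all probes tested the deviations of these 3 arrays from their treatment means were correlated, with r of 0.658 for control C with paraoxon B, 0.567 for control C with mipafox C and 0.661 for paraoxon B with mipafox C, as a description over probes that share the arrays.

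The same values can be set out by slide. Within slide 1, mipafox A against the mean of the 3 controls gave values from -0.46 (BCL2 A_33_P3355185) to 0.45 (BCL2L11 A_33_P3251932), with 9 of 15 above 0 and a median of 0.11, which are also the mipafox values with the slide as a block. Within the mipafox treatment, the mean of the slide 2 arrays minus mipafox A came to -0.61 for BID A_24_P187948, -0.43 for BBC3 and 0.62 for MCL1. For BID A_24_P187948 and MCL1 these differences within 1 treatment exceeded in size the paraoxon log2 fold change of any of the 15 probes. The other BID probe, A_33_P3227041, gave -0.41 and did not. Each difference sets mipafox B and C against 1 array, where a log2 fold change sets 3 arrays against 3.

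The genes around the family gave no call either, with 0 called in each of 6 lists and both comparisons, beside the 0.00% of all probes. Each gene is represented by its brightest tested probe. Over all probes tested 13.3% with paraoxon and 6.96% with mipafox had an unadjusted p under 0.05, to be set beside the list counts below. Groups did not overlap for 23.4% of all probes with paraoxon and 11.8% with mipafox. Of the other BCL2 family genes 11 of 13 were tested (BCL2L10 and BCL2L14 were not), with medians of -0.05 with paraoxon and 0.06 with mipafox. PMAIP1, which encodes the BH3-only protein NOXA, was the 1 gene of that list at an unadjusted p under 0.05 (1 of 11 with mipafox, 0 with paraoxon). It read -0.25, -0.17 and -0.03 in controls and -0.42, -0.85 and -0.84 with mipafox, all below the controls, a log2 fold change of -0.55 (SE 0.17, limma adjusted p = 0.525), and -0.22 with paraoxon (limma adjusted p = 0.648). With the slide as a block PMAIP1 was at -0.27 with mipafox and 0.20 with paraoxon.

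Downstream of the membrane, 16 of 16 apoptosome and caspase genes were tested, with medians of -0.04 and 0.00. None had an unadjusted p under 0.05, against 13.3% of all probes with paraoxon and 6.96% with mipafox. Of the inhibitors of apoptosis 7 of 8 were tested (BIRC3 was not), with medians of 0.10 and -0.14. BIRC6, a large ubiquitin ligase that restrains caspases, read -1.37, -1.31 and -1.31 in controls, -1.22, -0.62 and -0.95 with paraoxon and -1.55, -1.61 and -1.49 with mipafox. Its paraoxon arrays lay above the controls and its mipafox arrays below, with log2 fold changes of 0.40 (limma adjusted p = 0.331) and -0.22 (limma adjusted p = 0.868). BIRC6 was the 1 gene of the 7 tested at an unadjusted p under 0.05, with paraoxon only. With the slide as a block its values were 0.40 and -0.22.

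Upstream, 8 of 9 genes of the death receptor route into BID were tested (FASLG was not), with medians of 0.00 and 0.07. None had an unadjusted p under 0.05, against 13.3% of all probes with paraoxon and 6.96% with mipafox. Of 16 regulators of BCL2 family genes and proteins, all tested, the medians were 0.13 and 0.05. TP73, a relative of p53, was the 1 gene of the 16 at an unadjusted p under 0.05, with paraoxon only. TP73 read -5.49, -5.94 and -6.44 in controls and -5.80, -5.18 and -4.92 with paraoxon, which overlap, a log2 fold change of 0.66 (limma adjusted p = 0.361), which was 0.32 with the slide as a block. Of 12 outer membrane partners, all tested, the medians were -0.06 and 0.08. VDAC2, a channel protein that binds BAK1, was the 1 gene of the 12 at an unadjusted p under 0.05, with paraoxon only. VDAC2 read 4.00, 3.97 and 4.14 in controls, 4.25, 4.35 and 4.43 with paraoxon and 4.18, 4.34 and 4.47 with mipafox, all exposed arrays above all controls, with log2 fold changes of 0.31 (limma adjusted p = 0.366) and 0.29 (limma adjusted p = 0.735). With the slide as a block the values of VDAC2 were 0.08 and 0.14.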

How the data were processed

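Total RNA of NT2 cells was hybridised to 9 Agilent human 1-colour (Cy3) arrays with 60-base probes annotated to hg19. The deposited scanner files hold intensities from Agilent Feature Extraction 10.5.1.1, and the authors' processed table holds log2 values made with Agi4x44PreProcess, whose background and normalization settings are not given in the sources used here. That table was used as an alternative, and no column belonged to other samples. Control and outlier spots were left out, log2 of the processed signal minus the array's 75th percentile was taken, and spots of a probe were averaged. The 29134 probes that all arrays of 1 or more treatments showed well above background were fitted with limma 3.58.1 in R 4.3.3 over all 9 arrays, with 1 mean per treatment. The fit was tested on simulated data with independent noise, no slide effect and added changes larger than any seen in the members. That test does not show how the fit performs with this slide layout. As in the study's methods, a call needed a log2 fold change beyond 1 together with a Benjamini-Hochberg adjusted p under 0.05. The number of arrays limits the precision. Groups came from sample titles. All member probes are named, and genes of the surrounding lists (other BCL2 family, apoptosome and caspases, inhibitors of apoptosis, death receptor route, upstream regulators, outer membrane partners) at an unadjusted p under 0.05. The members and lists were chosen with earlier results of these data known. The letters A, B and C were not used as pairs in the main fit. Deviations of arrays with the same letter correlated at -0.597 to 0.567, over 0.1 in 5 of 9 pairs. Those of arrays with different letters correlated at -0.587 to 0.661, over 0.1 in 7 of 18 pairs, which does not settle whether the letters pair the arrays. In all 20 alternatives were fitted.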

Additional observations from a re-analysis of the deposited data

How the results depend on the processing

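No member probe was called under any of the 20 alternatives in either comparison. With the replicate block (letters A, B and C as a term) the log2 fold changes are the same by construction, 1 member probe had an unadjusted p under 0.05 with paraoxon and 0 with mipafox, and no call changed. Whether arrays with the same letter belong together cannot be told from these data. The count of member probes at an unadjusted p under 0.05, 1 with paraoxon and 0 with mipafox, became 2 and 1 with the authors' processed values and 4 and 3 with array weights, and 0 with paraoxon with the slide as a block. Over all probes tested the share at an unadjusted p under 0.05 was 16.3% and 9.17% with the authors' values, 29.9% and 37.2% with array weights (4 of 15 is 26.7% and 3 of 15 is 20%), and 8.02% with paraoxon with the slide as a block. Leaving out 1 array at a time gave 1 to 2 with paraoxon and 0 to 1 with mipafox. With array weights 1 member probe, BCL2L11 A_33_P3251932, had a limma adjusted p under 0.05 with mipafox (0.0182, at a log2 fold change of 0.59), and its adjusted p over all alternatives reached 1.00. The cause was not tested.

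With the slide as a block the median of the 15 probes was 0.24 with paraoxon and 0.11 with mipafox, and leaving out 1 array at a time it ran from -0.12 (without paraoxon C) to 0.00 with paraoxon, with -0.08 without paraoxon A. Of the 15 probes, 5 kept the sign of their log2 fold change under all 20 alternatives with paraoxon and 3 with mipafox.

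The slide block reversed, with paraoxon, BCL2L2 (-0.13), MCL1 (-0.39), BBC3 (0.28), BAK1 (0.09) and BID (0.18), and with mipafox BCL2 (0.11), BCL2L2 (-0.03), MCL1 (-0.22), BBC3 (0.08), BAK1 (0.12), BID (0.17) and BAD (-0.02). The authors' processed values reversed, with paraoxon, BCL2L2 (-0.02), BAK1 (0.01) and BAD (0.01), and with mipafox BCL2 (0.18) and BAK1 (0.06). Array weights reversed, with paraoxon, BCL2 (just below 0, 0.00 when rounded) and BCL2L2 (-0.01), and with mipafox BCL2L2 (-0.03), BCL2L11 (-0.03) and BAK1 (0.09). Normexp reversed BCL2L2 with paraoxon (-0.11) and mipafox (-0.03) and BCL2 with mipafox (0.04), and quantile normalization BCL2L2 with paraoxon (-0.01). These are each gene's brightest probe, and MCL1, BBC3 and BID were among those with the larger values before the slide was a term. Leaving out 1 array at a time gave, with paraoxon, -0.01 to 0.15 for BCL2 and -0.05 to 0.06 for BCL2L2, and with mipafox -0.15 to 0.03 for BCL2, -0.02 to 0.10 for BCL2L2, -0.01 to 0.09 for BCL2L11, -0.09 to 0.07 for BAK1, -0.24 to 0.05 for BID and -0.04 to 0.11 for BAD.

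Over all probes the number called, 0 in both comparisons, depended on the fit: 278 with paraoxon when only the 2 treatments compared were fitted, 671 with paraoxon and 800 with mipafox with array weights, 1 and 6 with the slide as a block, 275 and 78 without mipafox A, 77 with paraoxon without mipafox B and 1 without mipafox C. The cause was not tested.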
